A study of Mus musculus with 14 samples.

Results

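The unfolded protein response and the chaperones of the endoplasmic reticulum (ER) were examined through 31 genes in mouse lung. The genes form a list of names of known members of the pathway, and a probe set counted for a gene where the array annotation gave it that symbol and no other. All 31 were measured, out of 18193 genes, by 78 of the 45101 probe sets. The samples were whole lungs of C57BL/6 mice aged 20 weeks: CD151KO mice, which lack the tetraspanin CD151 (5 samples), CD9KO mice, which lack the tetraspanin CD9 (5 samples), and wild type mice (4 samples, numbered 1, 3, 4 and 5). Tetraspanins are small membrane proteins that organise integrins and other membrane proteins. The series title concerns protection from lung fibrosis by CD151. Total RNA of each sample was hybridised to a single 1-colour Affymetrix array. The labels name no cell type for the deletion, no inducer and no treatment.

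Proteins that enter the ER are folded there by chaperones and by enzymes that form disulfide bonds, and those that fail to fold are sent back to the cytosol for degradation. When unfolded proteins accumulate, the sensors IRE1, PERK and ATF6 start the unfolded protein response: IRE1 splices the mRNA of the transcription factor XBP1, PERK slows translation and favours production of ATF4, and ATF6 is cleaved to release a transcription factor. These factors induce chaperone genes, and ATF4 also induces genes of amino acid supply and recovery of translation, a branch it shares with the integrated stress response. In the lung, cells that secrete heavily, such as surfactant-producing alveolar type 2 cells and plasma cells, rely on this machinery.

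Promoter sequences were not read when the genes were listed, and can be set beside their values. The genes are, however, known members of a pathway whose factors bind the elements searched. Frequent matches among them are therefore no independent result. RefSeq promoter windows (GRCm38.p6, 250 bases before to 50 after the annotated start) were found for 27 of the 31 genes, all but Hyou1, Manf, Atf6 and Sec61a1. The ER stress element, written as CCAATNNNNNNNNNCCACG and searched on both strands, joins a binding site of the general factor NF-Y to one recognised by ATF6 and XBP1. It occurred in 8 of the 27 windows, those of Hspa5, Hsp90b1, Dnajc3, Creld2, Pdia6, Calr, Canx and Syvn1. It occurred in 39 of the 32851 windows of the whole table (0.119%) and in 16 of the windows of 10445 genes tested here (0.153%). The following stretches show the match in capitals with 10 bases on either side, 5′ to 3′ on the gene's strand, so that the conserved ends and the bases between them can be compared. A match that begins with CGTGG is the same element in the opposite orientation.
Hspa5: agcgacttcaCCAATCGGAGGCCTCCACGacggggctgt
Dnajc3: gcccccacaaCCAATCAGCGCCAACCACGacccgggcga
Creld2: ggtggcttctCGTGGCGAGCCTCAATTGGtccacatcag
Pdia6: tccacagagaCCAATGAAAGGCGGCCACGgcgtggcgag
Calr: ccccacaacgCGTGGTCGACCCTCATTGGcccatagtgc
Canx: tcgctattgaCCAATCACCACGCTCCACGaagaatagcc
Syvn1: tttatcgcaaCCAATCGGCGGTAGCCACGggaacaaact
Hsp90b1: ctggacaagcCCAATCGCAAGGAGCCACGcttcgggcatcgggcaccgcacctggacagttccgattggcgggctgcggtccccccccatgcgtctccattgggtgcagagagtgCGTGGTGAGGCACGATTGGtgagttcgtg
The Hspa5 stretch lies at chr2:34772015-34772053 (plus strand), that of Dnajc3 at chr14:118937817-118937855 (plus strand), that of Creld2 at chr15:88819510-88819548 (plus strand) and that of Pdia6 at chr12:17266481-17266519 (plus strand). The Calr stretch lies at chr8:84847065-84847103 (minus strand), that of Canx at chr11:50325790-50325828 (minus strand) and that of Syvn1 at chr19:6046522-6046560 (plus strand). The Hsp90b1 stretch, at chr10:86705523-86705666 (minus strand), spans 144 bases because it holds 2 matches in opposite orientations. All matches lay upstream of the annotated start, between positions -212 and -26. A shorter variant, ER stress element II (ATTGG and CCACG with 1 base of any kind between them, both strands), was found in 2 of the 27 windows and in 0.0365% of all windows. These were Herpud1 (chr8:94386367-94386397 (plus strand)) and Dnajb11 (chr16:22857842-22857872 (plus strand)), shown in the same way.
Herpud1: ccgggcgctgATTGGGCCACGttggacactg
Dnajb11: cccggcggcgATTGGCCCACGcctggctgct
The amino acid response element bound by ATF4, written here as TGATGNAAN, matched the windows of Asns, Chac1, Trib3 and Herpud1, 4 of 27, against 3.95% of all windows. A separate motif, the core of the unfolded protein response element (TGACGTGG), matched 0 of the 27 windows and 0.676% of all windows. The ER stress element and its variant contain the letters CCAAT or their complement, which alone occurred in 20 of the 27 windows and 37.4% of all windows. These matches describe letters in a window and are not measured binding sites.

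**Figure D1:**
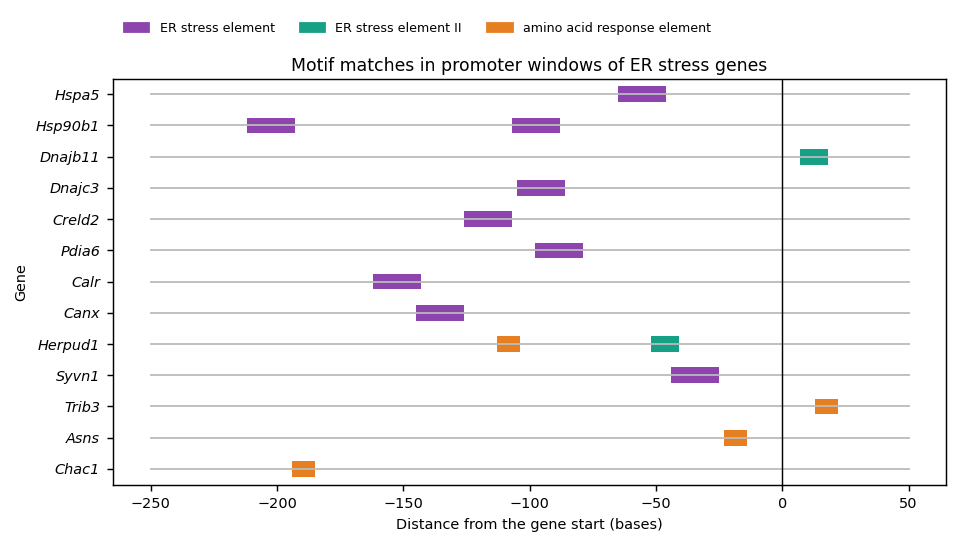
Positions of motif matches in the promoter windows of the 13 genes with a match to the ER stress element (purple), its variant (green) or the amino acid response element (orange), in bases from the annotated start (0); each grey line is 1 window of 300 bases. The purple bars all lie left of the start, and Hsp90b1 alone has 2 of them.

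Deposited signals are linear intensities, with array medians of 84.1 to 86.2, and all 31 genes lay above the filter on low signal. Values within a group are listed by array number. The deleted genes had low signals where the labels place the deletions: Cd151 gave 1027 to 1072 in CD151KO lungs, against 4991 to 5832 in wild type lungs, and Cd9 gave 614 to 749 in CD9KO lungs, against 7998 to 8163 in wild type lungs. Alveolar type 2 markers, 4 of which were measured, summed to 59531 to 62366 in CD151KO, 58458 to 59900 in CD9KO and 58663 to 60689.7 in wild type lungs. The first principal component held 37.5% of the variance, and arrays CD151KO 1 and wild type 1 scored lowest on it. Their scores were -17.2 and -18.5, against -8.01 to 13.4 for the other arrays. In CD151KO and wild type the scores rose with array number, up to 2.46 in CD151KO 5 and 1.48 in wild type 5. Signals of Hspa5, Manf and Creld2 also rose with array number in these groups, whereas those of Sec61b in wild type lungs did not. Array wild type 1 had the lowest signal of the 14 arrays for 20 of the 31 genes, whereas it was lowest for 16.5% of all genes tested, so results against wild type are also given without it. Whether each sample was a separate animal is not stated, so a p-value here covers the spread among these arrays, some of which may be technical. In whole lung, fewer cells of a type and less RNA per cell cannot be told apart.

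In CD9KO lungs the chaperones and disulfide isomerases of the ER were higher on average than in wild type lungs, with differences of 0.11 to 0.45 on a log2 scale, and 6 of the 14 rose by the test. In CD151KO against wild type lungs 0 of the 31 genes passed. Differences are given on the scale log2(signal + 16), tested with limma across 12985 genes, and a gene passed at a Benjamini-Hochberg adjusted p under 0.05. Against wild type, 6 of the 31 genes rose in CD9KO lungs (Hspa5, Hyou1, Creld2, Pdia4, Pdia6 and Calr) and 1 fell (Atf4), while 5.51% of all genes passed, 2.88% as higher and 2.63% as lower. The 31 genes had a median difference of 0.16, against 0.0037 for all genes, and 28 of them were positive, against 51.2% of all genes. At an unadjusted p under 0.05 the count was 23 of 31, against 25.4% of all genes. The CD9KO and wild type arrays did not overlap for 14 genes that were higher and 1 that was lower, against 6.64% and 5.19% of all genes.

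For CD151KO against wild type, 0 of the 31 passed in limma's fit and 0.778% of all genes did. At an unadjusted p under 0.05 the count was 8 of 31, against 11.1% of all genes. The median difference was 0.056, against 0.0079 for all genes, and 24 of the 31 were positive, against 54% of all genes. The arrays did not overlap for Pdia4 and Pdia6, which were higher, and for Atf4, which was lower, where 2.84% and 1.69% of all genes did not overlap in those directions. The count of 0 depended on the model. With the shared array numbers as blocks, 2 of the 31 passed, Pdia4 and Pdia6, beside 109 of 12985 genes. For CD9KO against wild type 17 of the 31 passed with these blocks, beside 1591 of 12985 genes.

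Between the knockouts, CD151KO against CD9KO, Sec61b was higher and Ern1 and Ppp1r15a were lower, 3 of 31 genes. That share was close to the 10.1% of all genes (5.99% higher, 4.12% lower), so the number of calls does not set the list apart. The median difference of the 31 was -0.11, against 0.0016 for all genes, and 5 were positive, against 50.6% of all genes. Non-overlapping arrays were found for 1 higher and 4 lower genes, against 6.55% and 4.06% of all genes. Both comparisons with wild type share the same 4 wild type arrays, and both with CD9KO share its 5, so the 3 sets of values are not independent of one another.

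**Figure D2:**
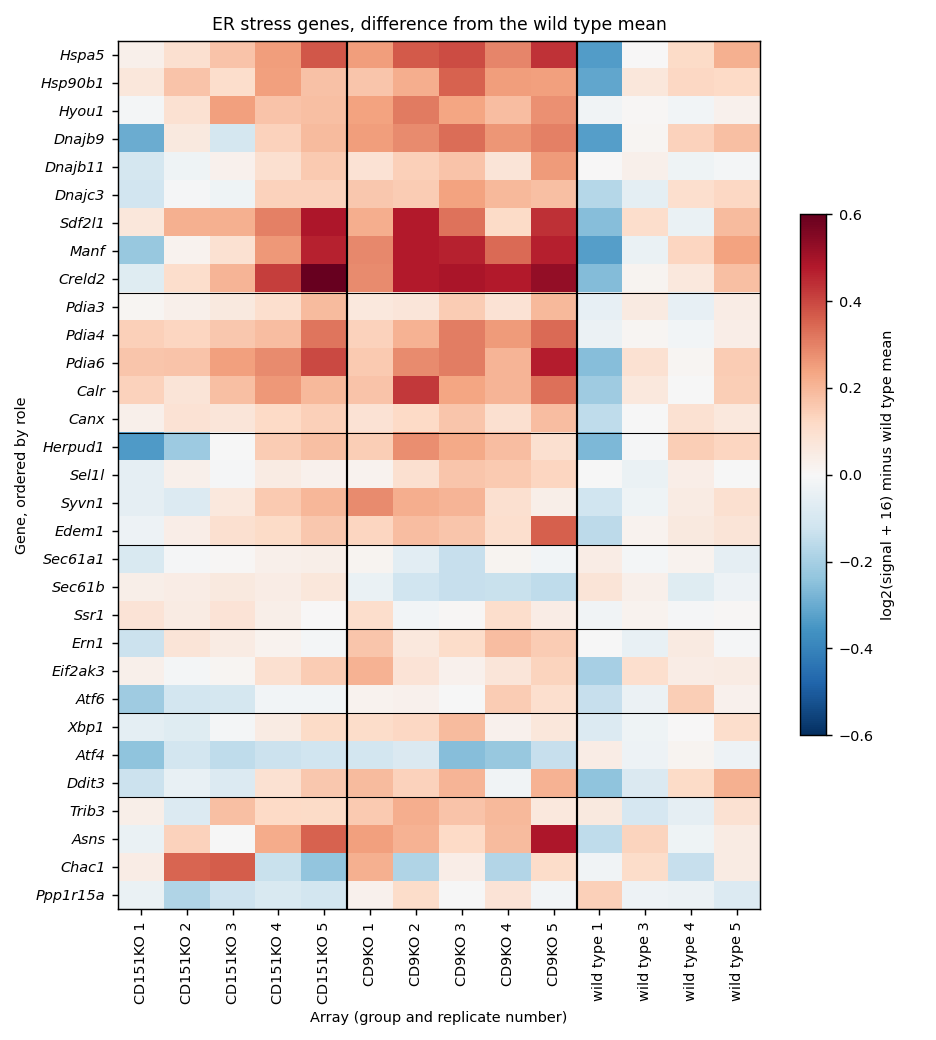
Heat map of log2(signal + 16) minus the wild type mean for the 31 genes (rows, ordered by role, horizontal lines between roles) on the 14 arrays (columns, CD151KO, CD9KO, then wild type), with the colour scale running from -0.6 (blue) to 0.6 (red). The CD9KO columns are red throughout the chaperone and isomerase rows, array wild type 1 is blue in most of them, and Atf4 is blue in both knockouts.

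The number of CD9KO calls depended on single arrays, among them wild type 1. Without it, 2 of the 31 genes passed against wild type, Hyou1 and Pdia4, while 2.06% of all genes did, and the median difference was 0.13. Without CD151KO 1 and wild type 1 together, the same 2 genes passed for CD9KO, among 3.12% of all genes, and the median was again 0.13. Leaving out wild type 3, CD9KO 3, CD9KO 4 or CD9KO 5 also left 2 genes, where 1.19%, 2.63%, 1.62% and 1.44% of all genes passed in that order. The count was 3 without CD9KO 2 (4.95% of all genes), 4 without wild type 4 (3.96%) and 10 without wild type 5 (5.57%). Calls among all genes thus also became fewer in most of these cases. Hyou1 and Pdia4 passed with each array left out in turn, and in 23 of 24 alternative analyses in all. Creld2 passed in 16 of the 24, Calr and Atf4 in 15 each, Hspa5 in 13 and Pdia6 in 9. Creld2 and Calr were lost without wild type 1, 3 or 4 or CD9KO 2, 3, 4 or 5, and Atf4 without wild type 1, 3 or 4 or CD9KO 3, 4 or 5. Hspa5 was lost without wild type 1 or 3, CD151KO 3 or 4 or CD9KO 2, 3, 4 or 5, and Pdia6 without those arrays, wild type 4 or CD151KO 2. For CD151KO against wild type the count stayed at 0 in all these cases, with 0.585% of all genes passing without wild type 1 and 0.347% without both number 1 arrays. For CD151KO against CD9KO it was 3 without both number 1 arrays, among 9.48% of all genes. It was 7 without wild type 1, where 15% of all genes passed. Sec61b alone was left without wild type 3 or 4 (8.61% and 9.04% of all genes), CD151KO 1, 3 or 4 (5.37%, 7.06% and 8.84%), or CD9KO 3, 4 or 5 (6.99%, 6.87% and 5.28%).

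General chaperones of the ER lumen were grouped with the secreted proteins Creld2 and Manf, and this group of 9 included the gene with the largest difference, Creld2. All 9 were higher on average in CD9KO lungs than in wild type lungs, with a median of 0.29, and 3 of them rose by the test. Hspa5 encodes BiP, the main chaperone of the lumen and the protein that holds the sensors inactive. Hspa5 had signals of 5739.7, 6001, 6329, 6692 and 7293 in CD151KO lungs and 6681, 7261, 7368, 6882 and 7606 in CD9KO lungs, against 4452, 5636, 6098 and 6523 in wild type lungs. All CD9KO arrays lay above all wild type arrays, and the CD151KO arrays overlapped both groups. The difference was 0.35 (SE 0.092, adjusted p = 0.0425) for CD9KO against wild type, 0.18 (SE 0.092, adjusted p = 0.477) for CD151KO against wild type and -0.16 (SE 0.087, adjusted p = 0.236) for CD151KO against CD9KO. Hyou1, an exchange factor that resets BiP, had, with Pdia4, the smallest adjusted p of the 31 genes in CD9KO against wild type lungs. Hyou1 had signals of 789, 849.7, 947, 899 and 903 in CD151KO lungs and 944, 993, 941, 908 and 967 in CD9KO lungs, against 784, 801, 786 and 811 in wild type lungs. Each CD9KO value was above each wild type value, and of the CD151KO arrays number 1 lay within the wild type range. Hyou1 differed by 0.25 (SE 0.047, adjusted p = 0.0149) in CD9KO and by 0.14 (SE 0.047, adjusted p = 0.257) in CD151KO against wild type. Creld2, a secreted ER protein induced by ER stress, had the largest difference in CD9KO lungs. Creld2 had signals of 669, 759, 815, 946 and 1073 in CD151KO lungs and 862, 987, 996, 987 and 1024 in CD9KO lungs, against 586, 712, 737 and 801 in wild type lungs. Its CD151KO arrays were the most scattered, rising with array number from within the wild type range to above all CD9KO arrays. The differences of Creld2 were 0.45 (SE 0.11, adjusted p = 0.0378) for CD9KO and 0.25 (SE 0.11, adjusted p = 0.435) for CD151KO against wild type.

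Dnajb9, a co-chaperone that lets BiP hold IRE1 inactive, separated the CD9KO arrays from all others. Dnajb9 had signals of 2250.1, 2885, 2576, 3047 and 3157 in CD151KO lungs and 3299, 3377, 3501, 3325 and 3419 in CD9KO lungs, against 2199, 2792, 3049 and 3136 in wild type lungs. The lowest CD9KO array was above the highest array of both other groups, and array number 1 was the lowest in CD151KO and in wild type. Neither difference passed, at 0.29 (SE 0.10, adjusted p = 0.0921) for CD9KO against wild type and -0.29 (SE 0.095, adjusted p = 0.0642) for CD151KO against CD9KO, and CD151KO differed from wild type by -0.0029. Dnajc3, a co-chaperone that also restrains PERK, had the same order. Dnajc3 had signals of 2414, 2605, 2567, 2883 and 2882 in CD151KO lungs and 2925, 2908, 3097, 2996 and 2968 in CD9KO lungs, against 2323, 2513, 2808 and 2847 in wild type lungs. CD9KO lay above both other groups without overlap, and those overlapped each other. The differences were 0.19 (SE 0.062, adjusted p = 0.0793) for CD9KO against wild type and -0.16 (SE 0.059, adjusted p = 0.0933) for CD151KO against CD9KO. Sdf2l1 is part of chaperone complexes with ER co-chaperones. Sdf2l1 had signals of 376, 417, 417, 445 and 508 in CD151KO lungs and 419, 504, 452, 389 and 490.2 in CD9KO lungs, against 297, 386, 347 and 410.2 in wild type lungs. The groups overlapped, and Sdf2l1 differed from wild type by 0.31 (SE 0.099, adjusted p = 0.0687) in CD9KO and 0.26 (SE 0.099, adjusted p = 0.323) in CD151KO lungs.

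The other 3 genes of the general chaperone group, like Dnajb9, Dnajc3 and Sdf2l1, did not pass in any comparison. Manf, a secreted factor that binds BiP, ranged from 1722 to 2792 in CD151KO and 2473 to 2818 in CD9KO, against 1607 to 2390.0 in wild type lungs, with a CD9KO difference of 0.41 (SE 0.12, adjusted p = 0.0605). Hsp90b1, the ER member of the Hsp90 family, ranged from 5157 to 5832 in CD151KO and 5521 to 6289 in CD9KO, against 3959.7 to 5365 in wild type lungs, and array wild type 1 was far below the other wild type arrays. Its CD9KO difference was 0.25 (SE 0.074, adjusted p = 0.0596). Dnajb11, a co-chaperone that delivers substrates to BiP, ranged from 836 to 1006 in CD151KO and 949 to 1076 in CD9KO, against 883 to 920.3 in wild type lungs, with a CD9KO difference of 0.15 (SE 0.051, adjusted p = 0.0914). In all 3 the CD9KO arrays lay above the wild type arrays without overlap.

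Enzymes of disulfide bond formation and the lectin chaperones, which hold glycoproteins during folding, were also higher on average in CD9KO lungs, with a median difference of 0.25. Of these 5 genes, 3 rose in CD9KO lungs and 0 passed in CD151KO lungs. Pdia4, a disulfide isomerase, was the gene of the 31 with the smallest adjusted p in CD151KO lungs. Pdia4 had signals of 842, 834, 852, 866 and 953 in CD151KO lungs and 839, 881, 944, 912 and 966 in CD9KO lungs, against 742, 766, 752 and 783 in wild type lungs. Both knockouts lay above wild type without overlap. The difference from wild type was 0.25 (SE 0.047, adjusted p = 0.0149) in CD9KO and 0.19 (SE 0.047, adjusted p = 0.0920) in CD151KO lungs, and CD151KO differed from CD9KO by -0.062 (95% interval -0.16 to 0.033). Pdia6, another disulfide isomerase, which also acts on IRE1 and PERK, showed a similar order. Pdia6 had signals of 2039.6, 2052, 2158, 2215 and 2401 in CD151KO lungs and 2029, 2219.7, 2256, 2094 and 2531 in CD9KO lungs, against 1519.9, 1941, 1832 and 2022 in wild type lungs. Again neither knockout overlapped wild type. Its difference from wild type was 0.29 (SE 0.080, adjusted p = 0.0499) in CD9KO and 0.25 (SE 0.080, adjusted p = 0.208) in CD151KO lungs. Calr encodes calreticulin, a soluble lectin chaperone that also binds calcium. Calr had signals of 5739, 5506, 5901, 6247 and 5957 in CD151KO lungs and 5864, 6999, 6149, 6005 and 6554 in CD9KO lungs, against 4496, 5451, 5205 and 5784 in wild type lungs. The CD9KO arrays lay above the wild type arrays, and CD151KO overlapped both. Calr differed from wild type by 0.27 (SE 0.066, adjusted p = 0.0330) in CD9KO and by 0.17 (SE 0.066, adjusted p = 0.327) in CD151KO lungs.

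Canx, the membrane-bound lectin chaperone calnexin, ranged from 4344 to 4705 in CD151KO and 4524 to 4843 in CD9KO, against 3820.1 to 4535 in wild type lungs, and its CD9KO difference of 0.13 (SE 0.045, adjusted p = 0.0835) did not pass. Pdia3, the isomerase that works with calnexin and calreticulin, ranged from 5348 to 6057 in CD151KO and 5559.9 to 6074 in CD9KO, against 5127 to 5524 in wild type lungs, with a CD9KO difference of 0.11 (SE 0.041, adjusted p = 0.100). Summed over these 5 genes and the 9 of the general chaperone group, the signal was 38265 to 45235 in CD151KO lungs, 42898 to 47159 in CD9KO lungs and 32813 to 41670.0 in wild type lungs. All CD9KO sums lay above all wild type sums, and the CD151KO sums overlapped both.

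**Figure D3:**
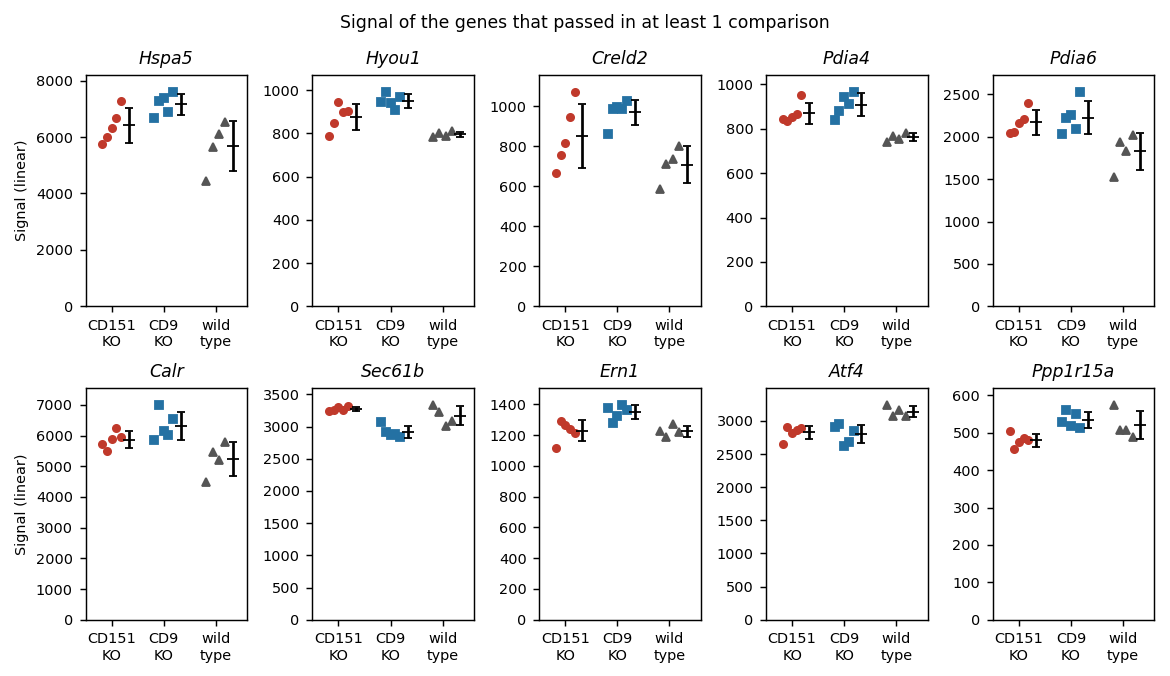
Linear signals of the 10 genes that passed in at least 1 comparison, by array (CD151KO red circles, CD9KO blue squares, wild type grey triangles), with the mean and SD of each group beside its points; the axes start at 0. Hspa5, Hyou1, Creld2, Pdia4, Pdia6 and Calr have all CD9KO points above all wild type points, Atf4 has all points of both knockouts below wild type, and Sec61b has its CD9KO points below all CD151KO points.

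The 8 genes with a match to the ER stress element in their window had a median difference of 0.26 in CD9KO against wild type lungs (0.13 to 0.45), and 4 of them rose (Hspa5, Creld2, Pdia6 and Calr). The 19 genes with a window and no match had a median of 0.14 (-0.16 to 0.31), with Pdia4 as the 1 that rose and Atf4 as the 1 that fell. Apart from Syvn1, the genes with a match were chaperones or isomerases, whereas those without included sensors, transcription factors and translocation genes. Role and element can therefore not be told apart here. Chaperones and isomerases with a window and no match differed by 0.29 (Dnajb9), 0.15 (Dnajb11), 0.31 (Sdf2l1), 0.11 (Pdia3) and 0.25 (Pdia4). Among genes outside the 31, the element was found in the windows of 8 tested genes, whose median difference was -0.0081, and 1 of them passed. That gene, Alg12, which builds the sugar chain added to glycoproteins, was higher by 0.23 (adjusted p = 0.0393, limma). Its window, on the opposite strand, overlaps that of Creld2 by 173 bases, so both genes share the same match. In CD151KO against wild type lungs, the 8 genes with a match had a median of 0.16 and none passed.

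ER-associated degradation, which exports misfolded proteins to the proteasome, was represented by 4 genes, and none passed in any comparison of the main analysis. Sel1l is the adaptor of the ubiquitin ligase that Syvn1 encodes. Sel1l had signals of 1617, 1711, 1669.8, 1734 and 1707 in CD151KO lungs and 1700.3, 1794, 1884, 1874 and 1834 in CD9KO lungs, against 1675, 1633, 1725 and 1677 in wild type lungs. The ranges overlapped in every pair, and Sel1l differed by 0.11 (SE 0.036, adjusted p = 0.0686) in CD9KO against wild type and by -0.11 (SE 0.034, adjusted p = 0.0590) in CD151KO against CD9KO. Its 5 probe sets did not share these directions. In CD9KO against wild type 3 of the 5 were negative (-0.093 to 0.11 over all 5). In CD151KO against CD9KO 3 of the 5 were positive (-0.11 to 0.13 over all 5). Syvn1 had signals of 679, 667, 739.5, 790.1 and 814 in CD151KO lungs and 863, 825, 815, 755 and 725 in CD9KO lungs, against 649, 695, 732 and 756 in wild type lungs. Syvn1 overlapped between all groups, with a CD9KO difference of 0.17 (SE 0.068, adjusted p = 0.138). Edem1 hands misfolded glycoproteins to this machinery. Edem1 had signals of 588, 617, 643, 652 and 674 in CD151KO lungs and 658, 686, 676, 645 and 775 in CD9KO lungs, against 537, 611, 627 and 634 in wild type lungs. For Edem1 the CD9KO arrays lay above the wild type arrays, and the difference was 0.19 (SE 0.061, adjusted p = 0.0753). Edem1 passed in this comparison in 2 of 24 alternative analyses, with averaged probe sets and with the replicate block. Herpud1, a stress-induced scaffold of the ligase, was scattered within CD151KO and wild type. Herpud1 had signals of 2979, 3244, 3769, 4196 and 4275 in CD151KO lungs and 4181, 4585, 4412, 4296 and 4039 in CD9KO lungs, against 3126, 3753, 4181 and 4127 in wild type lungs. Its arrays number 1 were the lowest of both groups, and it differed by 0.19 (SE 0.10, adjusted p = 0.265) in CD9KO against wild type and by -0.23 (SE 0.097, adjusted p = 0.134) in CD151KO against CD9KO.

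The channel through which proteins enter the ER was represented by 3 genes, of which 2 were lower on average in CD9KO than in wild type lungs. Sec61b, a small subunit of that channel, was the gene with the smallest adjusted p between the knockouts. Sec61b had signals of 3237, 3261, 3298, 3259 and 3318 in CD151KO lungs and 3077, 2914, 2873, 2881 and 2842 in CD9KO lungs, against 3335, 3230.2, 3002 and 3095 in wild type lungs. The CD151KO arrays were tightly grouped and all lay above the CD9KO arrays, and wild type overlapped both. Sec61b differed by 0.17 (SE 0.032, adjusted p = 0.00664) in CD151KO against CD9KO, and it passed in that comparison in all 24 alternative analyses. It differed by -0.12 (SE 0.034, adjusted p = 0.0555) in CD9KO against wild type and by 0.050 (SE 0.034, adjusted p = 0.639) in CD151KO against wild type. Sec61a1 forms the pore of the channel. Sec61a1 had signals of 2124, 2253, 2275, 2309 and 2317 in CD151KO lungs and 2289, 2161, 2055, 2284 and 2234 in CD9KO lungs, against 2335, 2244, 2292 and 2176 in wild type lungs. The groups overlapped, and Sec61a1 differed by -0.037 in CD9KO against wild type (95% interval -0.12 to 0.045) and by 0.033 in CD151KO against CD9KO (95% interval -0.045 to 0.11). Ssr1 is a subunit of a complex that assists translocation. Ssr1 had signals of 2550.4, 2485, 2546, 2468 and 2408 in CD151KO lungs and 2585, 2381, 2420.4, 2589 and 2482 in CD9KO lungs, against 2368, 2442, 2393 and 2417 in wild type lungs. It overlapped between all groups, with 0.050 in CD151KO (95% interval -0.019 to 0.12) and 0.050 in CD9KO against wild type (95% interval -0.019 to 0.12).

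Of the 3 sensors, Ern1, which encodes IRE1, was lower in CD151KO than in CD9KO lungs. Ern1 had signals of 1119, 1294, 1269, 1242 and 1215 in CD151KO lungs and 1378, 1281, 1323, 1396 and 1362 in CD9KO lungs, against 1224, 1185, 1269.9 and 1220.2 in wild type lungs. CD9KO lay above wild type without overlap, and CD151KO overlapped both. The difference was -0.13 (SE 0.040, adjusted p = 0.0474) in CD151KO against CD9KO, which passed in 7 of 24 alternative analyses, and 0.14 (SE 0.043, adjusted p = 0.0687) in CD9KO against wild type. The call between the knockouts was lost when any array was left out except wild type 1, CD151KO 2 and CD9KO 2. Atf6 is the sensor that becomes a transcription factor on cleavage. Atf6 had signals of 613, 658, 660.0, 704 and 703 in CD151KO lungs and 722, 725, 711, 793 and 765 in CD9KO lungs, against 645, 694, 789 and 725 in wild type lungs. Every CD151KO array was below every CD9KO array, wild type overlapped both, and the difference of CD151KO against CD9KO was -0.15 (SE 0.054, adjusted p = 0.0864). The 3 Atf6 probe sets above the filter did not share a direction. They ranged from -0.15 to 0.016 in CD151KO against CD9KO. In CD9KO against wild type they ranged from -0.15 to 0.060, and the probe set listed here was the only positive one. Eif2ak3 encodes PERK. Eif2ak3 had signals of 631, 612, 624, 661 and 688 in CD151KO lungs and 716, 656, 630.2, 650.4 and 679 in CD9KO lungs, against 537, 664, 639 and 641 in wild type lungs. Its groups overlapped, with 0.10 in CD9KO (95% interval -0.021 to 0.23) and 0.055 in CD151KO against wild type (95% interval -0.070 to 0.18).

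Among the transcription factors, Atf4 differed in direction from the chaperones. Its protein level is set largely by translation, which these arrays do not measure. Atf4 had signals of 2654, 2908, 2819, 2865 and 2891 in CD151KO lungs and 2906, 2951, 2626, 2679.9 and 2853 in CD9KO lungs, against 3241, 3074, 3171 and 3076 in wild type lungs. All arrays of both knockouts lay below all wild type arrays. Atf4 fell in CD9KO lungs by the test, at -0.16 (SE 0.040, adjusted p = 0.0338), and differed by -0.15 (SE 0.040, adjusted p = 0.112) in CD151KO against wild type, which did not pass. The knockouts differed from each other by 0.013 (95% interval -0.068 to 0.094). Xbp1 is spliced by IRE1, and its total signal does not tell the spliced from the unspliced mRNA here. Xbp1 had signals of 6013, 5942, 6194, 6471 and 6768 in CD151KO lungs and 6743, 6813, 7135, 6360.5 and 6561 in CD9KO lungs, against 5904, 6153, 6258 and 6731 in wild type lungs. The groups overlapped, and Xbp1 differed by 0.10 (SE 0.046, adjusted p = 0.178) in CD9KO against wild type and -0.099 (SE 0.044, adjusted p = 0.153) in CD151KO against CD9KO. Ddit3 encodes CHOP, a factor linked to cell death under lasting stress. Ddit3 had signals of 619, 656, 639, 722 and 758 in CD151KO lungs and 775, 747, 783, 666 and 786 in CD9KO lungs, against 570.0, 637, 735 and 787 in wild type lungs. All groups overlapped, with 0.14 (SE 0.086, adjusted p = 0.303) in CD9KO and -0.00031 in CD151KO against wild type. A second Ddit3 probe set gave the opposite sign. It read 131 ± 23.3 in CD151KO (SD, n = 5), 102 ± 11.1 in CD9KO (SD, n = 5) and 158 ± 10.98 in wild type lungs (SD, n = 4). Tested with every probe set on its own, it differed by -0.57 in CD9KO against wild type (adjusted p = 0.00950, limma), so the direction of Ddit3 depends on the probe set.

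Targets of ATF4 and of the integrated stress response gave 1 call among 4 genes. Ppp1r15a encodes the phosphatase subunit that lets translation recover, and it was lower in CD151KO than in CD9KO lungs. Ppp1r15a had signals of 505, 456, 475, 486 and 480.2 in CD151KO lungs and 529, 560.5, 519, 549 and 513 in CD9KO lungs, against 574, 508, 507 and 490.1 in wild type lungs. All CD151KO arrays were below all CD9KO arrays, and wild type overlapped both. It differed by -0.15 (SE 0.045, adjusted p = 0.0498) in CD151KO against CD9KO, passing in 8 of 24 alternative analyses, and by -0.11 (SE 0.048, adjusted p = 0.401) in CD151KO and 0.040 (SE 0.048, adjusted p = 0.629) in CD9KO against wild type. That call was lost without any 1 of the CD151KO or CD9KO arrays, or without wild type 3 or 4. Asns makes asparagine. Asns had signals of 452, 515, 465, 547 and 599.8 in CD151KO lungs and 555, 542, 508, 533 and 658 in CD9KO lungs, against 417, 512, 457 and 483 in wild type lungs. The groups overlapped, and CD9KO differed from wild type by 0.25 (SE 0.087, adjusted p = 0.0920). Trib3 is a stress-induced pseudokinase. Trib3 had signals of 118, 108, 132, 126 and 125 in CD151KO lungs and 129.9, 136, 131, 134 and 121 in CD9KO lungs, against 120.2, 106, 110.0 and 123 in wild type lungs. Its CD9KO difference of 0.16 (SE 0.059, adjusted p = 0.101) did not pass and the groups overlapped. Chac1, which breaks down glutathione, ranged from 75.5 to 123 in CD151KO and 79.3 to 109 in CD9KO, against 82.1 to 101 in wild type lungs, and differed by 0.0015 in CD9KO against wild type (95% interval -0.26 to 0.26).

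**Figure D4:**
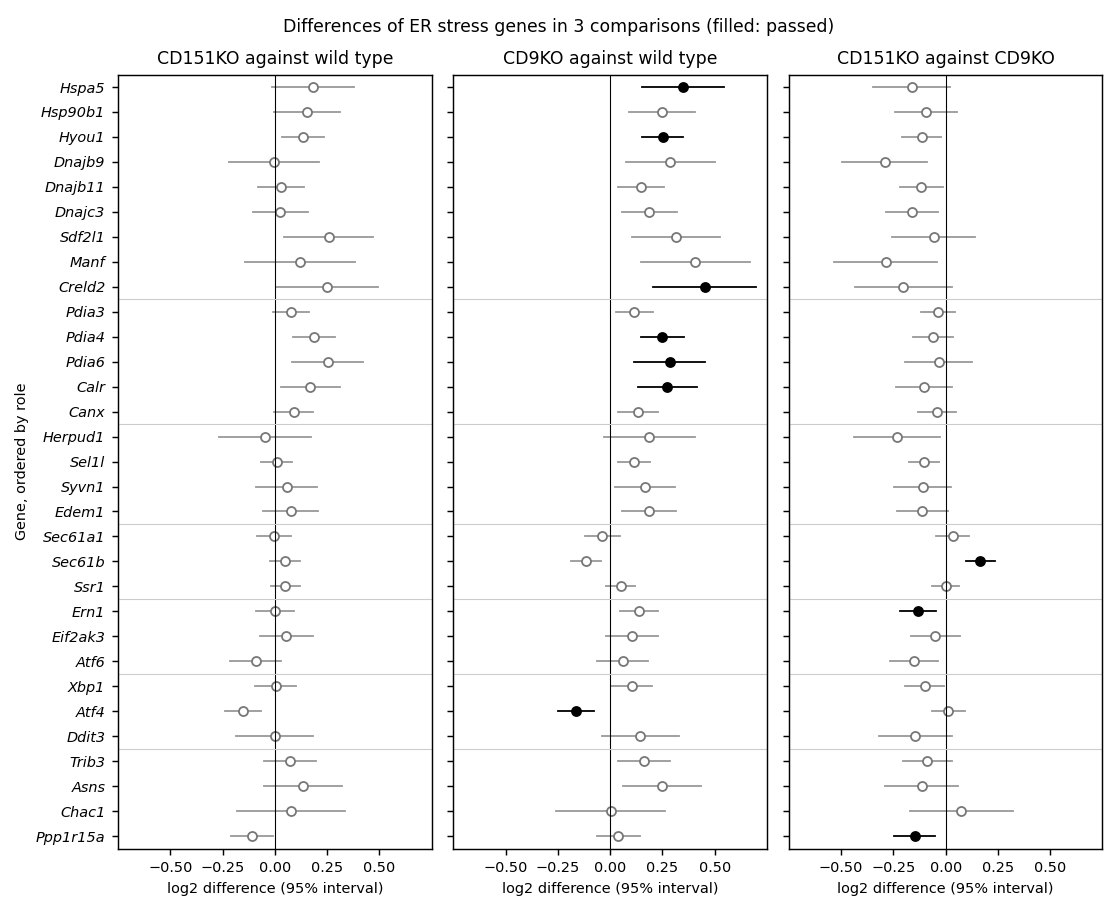
Differences of the 31 genes (rows, ordered by role) in the 3 comparisons (panels), as points with 95% intervals on the log2(signal + 16) scale; filled points passed. In the panel of CD9KO against wild type 7 points are filled and 28 lie right of 0, in that of CD151KO against wild type 0 are filled, and in that of CD151KO against CD9KO 3 are filled and 26 lie left of 0.

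Other probe sets of the same genes gave a mixed picture. Of 40 further probe sets above the filter, 26 were higher in CD9KO than in wild type lungs, 5 of them past the threshold, and 1 was past it as lower. Over all probe sets, 50.5% were higher, 3.09% passed as higher and 3.69% as lower. Further probe sets of Hyou1 (0.32, adjusted p = 0.00940), Calr (0.28, adjusted p = 0.0137, and 0.23, adjusted p = 0.0319), Hspa5 (0.46, adjusted p = 0.0201) and Xbp1 (0.22, adjusted p = 0.0363) passed as higher in limma's fit of every probe set. A further Hspa5 probe set gave 0.015, a further Pdia6 probe set -0.16 and a further Hsp90b1 probe set -0.061, none of which passed. In CD151KO against CD9KO, the 3 Ern1 probe sets ranged from -0.13 to 0.10. Averaging all probe sets of a gene ended the calls of Hyou1, Pdia4, Pdia6 and Atf4 in CD9KO against wild type lungs. It added a call of Edem1, so that 4 of the 31 genes passed. These averages also took in probe sets below the filter (signal 53.4). Group means were 37.5 to 41.2 for the other probe set of Pdia4, 35.7 to 43.6 for one of Hyou1 and 26.1 to 28.4 for one of Atf4. The further Pdia6 probe set was above the filter.

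The wider pathway was read from 134 further genes in 6 lists, of which 124 were tested. Against wild type, 6 of the 124 rose and 2 fell in CD9KO lungs (median difference 0.035), and 1 rose and 0 fell in CD151KO lungs (median 0.043). In CD9KO lungs these were 4.84% and 1.61% of the 124, beside 2.88% and 2.63% of all genes. In CD151KO lungs 0.806% of the 124 passed, beside 0.778% of all genes, so that share was close to the background. The CD9KO rises were the disulfide isomerase Pdia5 (0.32, adjusted p = 0.0180, limma), the degradation cofactor Nploc4 (0.17, adjusted p = 0.0172), the trafficking regulator Arfgap3 (0.27, adjusted p = 0.0362) and 3 targets of the integrated stress response. These 3 were the translation repressor Eif4ebp1 (0.28, adjusted p = 0.0275), the transcription factor Atf5 (0.21, adjusted p = 0.0381) and the amino acid transporter Slc7a5 (0.32, adjusted p = 0.0456). The 2 that fell were Ubxn4, an ER protein of degradation (-0.33, adjusted p = 0.0231), and Dad1, a subunit of the enzyme that adds sugar chains (-0.18, adjusted p = 0.0275). In CD151KO lungs the single gene was Atf6b, a relative of Atf6 (0.19, adjusted p = 0.0440). Where a list had no gene that passed, its gene with the smallest p was Creb3 in CD9KO against wild type lungs (-0.11, adjusted p = 0.0665, limma). In CD151KO against wild type lungs these were Pdia5 (0.23, adjusted p = 0.145), Ubxn4 (-0.18, adjusted p = 0.349), Sec62 (-0.13, adjusted p = 0.0983), Surf4 (0.12, adjusted p = 0.177) and Nupr1 (0.38, adjusted p = 0.0977), none of which passed.

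Between the knockouts, 7 of the 124 were higher and 7 lower in CD151KO than in CD9KO lungs, and the median difference was 0.0062. Together 11.3% of them passed, close to the 10.1% of all genes, so their number does not set these lists apart and the genes are given as single values. Nupr1, a stress-induced chromatin protein, was higher in CD151KO by 0.64 (adjusted p = 0.00159, limma). Dad1 (0.17, adjusted p = 0.0145) and Ssr4 (0.14, adjusted p = 0.0314), a partner of Ssr1, were higher in CD151KO as Sec61b was. Atf5 (-0.25, adjusted p = 0.00806) and Slc7a5 (-0.27, adjusted p = 0.0479) were lower. The other higher genes were Cnpy2, an ER folding factor (0.16, adjusted p = 0.0429), Rnf5, a ubiquitin ligase of the ER membrane (0.19, adjusted p = 0.0312), Spcs1, a signal peptidase subunit (0.088, adjusted p = 0.0468), and Eif2ak2, a kinase that responds to double-stranded RNA (0.13, adjusted p = 0.0303). The other lower genes were the degradation cofactors Nploc4 (-0.15, adjusted p = 0.00928) and Ufd1 (-0.14, adjusted p = 0.0339), the glycosylation subunit Stt3b (-0.24, adjusted p = 0.0402), Arfgap3 (-0.24, adjusted p = 0.0333) and the translocation factor Sec63 (-0.11, adjusted p = 0.0478), which was named after its values were seen.

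Heat shock genes and markers of other cell types were measured on the same arrays. The 6 cytosolic heat shock genes tested had a mean log2 deviation of -1.27 on array wild type 1 and -0.31 on array CD151KO 1, against -0.25 to 0.48 on the other arrays, and 0 of 6 passed in any comparison. Their summed signal was 26818 to 41157 in CD151KO, 33346 to 41861 in CD9KO and 18313 to 41579 in wild type lungs. Plasma cell markers summed to 7319 to 12241 in CD151KO, 3978 to 10673 in CD9KO and 4064 to 12489.9 in wild type lungs, and 0 of the 4 tested passed in any comparison. Of the 5 plasma cell markers summed, 4 lay above the filter on low signal. Cardiac muscle genes showed 1 of 4 higher in CD9KO than in wild type lungs, Myh6, by 0.72 (adjusted p = 0.0275), and alveolar type 2 genes showed 1 of 4 higher in CD151KO than in CD9KO lungs, Abca3, by 0.36 (adjusted p = 0.00410). Neutrophil genes were higher in CD151KO than in CD9KO lungs, 2 of 2, with S100a9 at 1.78 (adjusted p = 0.00813) and S100a8 at 1.61 (adjusted p = 0.00926). The 2 neutrophil genes summed to 2708 to 9923 in CD151KO, 1186 to 1771 in CD9KO and 1721 to 4836 in wild type lungs. The 4 cardiac muscle genes summed to 4498 to 7968 in CD151KO and 6872 to 9125 in CD9KO, against 5148 to 6177 in wild type lungs. The 3 fibroblast genes summed to 6474 to 6982 in CD151KO and 6344 to 7234 in CD9KO, against 6026 to 6326 in wild type lungs. For both of these lists the CD9KO sums lay above the wild type sums without overlap, as the chaperone sums did. The 3 adipose genes summed to 1250 to 2076 in CD151KO and 1344 to 2625 in CD9KO, against 1165 to 1522 in wild type lungs. Their mean log2 deviation was 0.17 in CD9KO and -0.31 in wild type lungs, further apart than that of the 14 chaperones and isomerases (0.12 and -0.14), but the groups' sums overlapped and 0 of 3 passed. Myh6 was also lower in CD151KO than in CD9KO lungs, at -0.56 (adjusted p = 0.0389, limma), and the fibroblast gene Pdgfra was the 1 of 3 that rose in CD9KO against wild type lungs, by 0.26 (adjusted p = 0.0313). The part of these cells in the differences above was not tested.

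**Figure D5:**
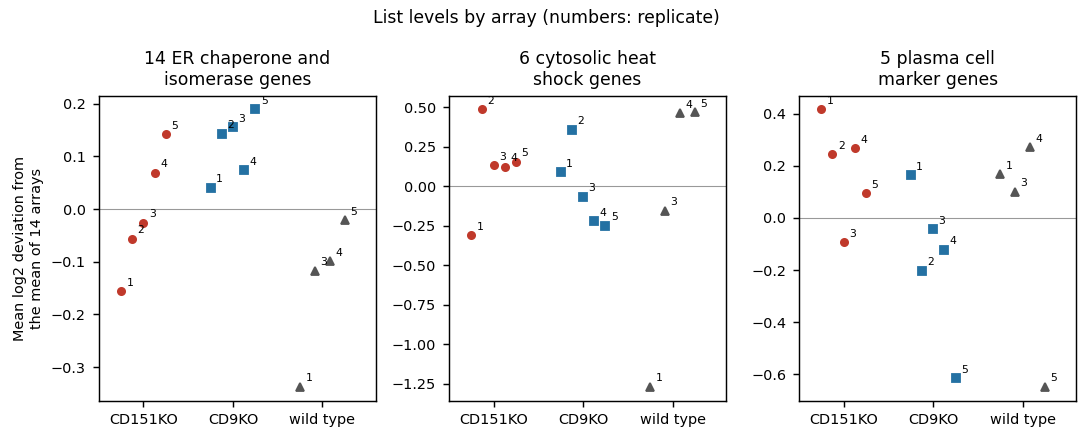
Mean log2 deviation from the mean of the 14 arrays for the 14 chaperone and isomerase genes (left), 6 cytosolic heat shock genes (middle) and 5 plasma cell markers (right), 1 point per array with its number. In the left panel the CD9KO points lie at 0.040 to 0.19 and the wild type points at -0.34 to -0.021, and array wild type 1 is lowest in the left and middle panels.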

How the data were processed

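Total RNA of 14 whole-lung samples in 3 groups was measured on 1-colour Affymetrix arrays. The authors deposited linear intensities for each probe set, which their labels call normalized. The submitters' processing notes name Affymetrix Expression Console and MAS5, without saying what each did. The method of summarising and normalizing is therefore not given in these sources, and no detection calls were used.

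Gene symbols came from the platform annotation. Of 45101, 34945 had 1 symbol, 932 several and 9160 none, and 64 were controls. Of those with 1 symbol, 34741 matched a gene table of GRCm38.p6 and 0 symbols were updated. The probe set with the highest mean stood for its gene, and 5208 genes below the 40th percentile (log2 6.12, signal 53.4) were left out, leaving 12985. A linear model of the 3 groups was fitted to log2(signal + 16) with limma 3.58.1 in R 4.3.3 (eBayes with trend, two-sided, Benjamini-Hochberg over all genes, 11 residual degrees of freedom, median residual SD 0.0882). Differences of low signals are understated on this scale. The number of arrays limits the precision.

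The 31 genes were listed by their known place in the pathway and not by a measured value, but they, the other lists and the tests were chosen with earlier results of these data known. Every gene of the 31 is reported: with all values if it passed or was among the 2 smallest p of its role in a comparison, otherwise by range. Further pathway genes are named if they passed, at most 4 a list. Simulated data of 12985 genes gave, for CD151KO against wild type, 34.9% of changes of 0.2 recovered, 83.0% of 0.4 and 98.5% of 0.8, with 5.15% of calls false. Noise was drawn for each gene on its own, whereas genes on the real arrays varied together, so these rates may not hold for the real data. Promoter windows and their sequences are RefSeq's. Alternatives tried were a pseudocount of 1 or 64, quantile normalization, median centring, no filter, a filter at the 60th percentile, averaged or separate probe sets, only the compared groups, a replicate block, and leaving out arrays. Plots used matplotlib 3.10.9 (Python 3.11.15).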

Additional observations from a re-analysis of the deposited data

Results flagged for a closer look

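A single array lay far from the rest of its group, relative to the group's range, in 3 of the 93 groups of 4 or 5 arrays examined for the 31 genes. Chance gives about 1 in 20 such groups. Hsp90b1 read 3959.7 on array wild type 1, against 5150 to 5365 on the other wild type arrays. Creld2 read 862 on array CD9KO 1, below the other CD9KO arrays, which read 987 to 1024. Pdia4 read 953 on array CD151KO 5, above the other CD151KO arrays, which read 834 to 866.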

How the results depend on the processing

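The median difference of the 31 genes kept its direction in all alternatives: 0.031 to 0.088 for CD151KO against wild type, 0.11 to 0.20 for CD9KO against wild type and -0.13 to -0.058 for CD151KO against CD9KO. Counts of calls moved more. For CD9KO against wild type, 7 of the 31 genes passed, beside 715 of all 12985 genes. The count was 4 with averaged probe sets (627 of 12146 genes) and 4 with only the compared groups in the fit (518 of 12985). It was 2 without both number 1 arrays (405 of 12980). With every probe set tested on its own, 13 of 71 probe sets of these genes passed, beside 1555 of all 22951. For CD151KO against wild type, 101 genes passed, 39 with only the compared groups and 45 without both number 1 arrays. For CD151KO against CD9KO, 3 of the 31 genes passed, beside 1313 of 12985 genes. The count was 1 with median centring (1175 of 12985 genes) and 1 with no filter (1093 of 18193). With every probe set, 1 of 71 passed, beside 1767 of 22951.

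Leaving out 1 array at a time gave 24 to 98 genes for CD151KO against wild type, with 0 of the 31 each time. For CD9KO against wild type it gave 155 to 867 genes and 2 to 10 of the 31, and for CD151KO against CD9KO 686 to 1941 genes and 1 to 7 of the 31. The lowest count was 24 without wild type 4 for CD151KO against wild type, 155 without wild type 3 for CD9KO against wild type and 686 without CD9KO 5 for CD151KO against CD9KO, and the cause was not tested. Without detection calls, how far Chac1 and Trib3, the lowest of the 31, lay above background is not known.

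Samples share replicate numbers across groups, and the labels do not say that a number marks a shared litter or day. The numbers were not taken as pairs for that reason alone, and the array values do not settle it. Deviations of same-numbered arrays correlated at 0.59, -0.13, 0.45 and 0.26 between CD151KO and wild type (numbers 1, 3, 4 and 5). They correlated at 0.0043 to 0.18 between CD9KO and wild type and -0.098 to 0.21 between CD151KO and CD9KO. Arrays with different numbers correlated at -0.49 to 0.39 between CD151KO and wild type. With a replicate block, 2 of the 31 genes and 109 of all genes passed for CD151KO against wild type, 17 and 1591 for CD9KO against wild type, and 8 and 1821 for CD151KO against CD9KO. Of single differences that did not pass, averaging probe sets turned the signs of Ddit3 (to -0.21), Sel1l (to -0.012) and Atf6 in CD9KO against wild type. With averaging, 25 of the 31 genes were positive there, against 28 in the main analysis. In CD151KO against CD9KO, averaging turned Sel1l to 0.023, and 9 of the 31 were positive, against 5 in the main analysis.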
